A study of Schizosaccharomyces pombe with 70 samples.

Results

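The mitochondrial ribosomal protein genes of fission yeast (Schizosaccharomyces pombe) were followed through a block of DNA replication. They were chosen by name, as the genes whose symbol in the platform annotation starts with mrpl, mrps or rsm and a digit, or mrp and a digit. This gave 56 genes of 4929 on the array, all of which could be tested. By symbol 29 belong to the large subunit (mrpl), 17 to the small subunit (mrps and rsm) and 10 are numbered mrp genes, whose symbol names no subunit. The gene rsm1 carries a small-subunit symbol by the rule, but in fission yeast it is known for a part in messenger RNA export. Its values are kept in the counts, and no count moved by more than 1 gene without it.

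Asynchronous mid-log cultures at 30 °C received 8 mM hydroxyurea (HU), which blocks ribonucleotide reductase and so starves DNA synthesis of its building blocks. RNA was taken at 0, 10, 30, 60 and 120 min from wild type (WT), the single mutants rad3, cds1 and chk1, and the double mutant rad3sep1. The labels name the mutated genes but give no allele, and all groups shared the culture conditions and, at 0 min, the absence of HU. Each of the 70 arrays gave the log2 ratio of a sample, in Cy5, to untreated WT, in Cy3, so 0 is the level of the reference. Rad3 heads the DNA damage and replication checkpoints as their upstream kinase, Cds1 acts below it when forks stall, Chk1 acts below it after DNA damage, and Sep1 is a forkhead transcription factor.

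Mitochondria translate their own small genome with a ribosome of their own, descended from that of bacteria. Its RNAs are made inside the organelle, but nearly all of its proteins are encoded in the nucleus, translated in the cytoplasm and imported. In yeast this ribosome makes a few membrane subunits of the respiratory chain and the ATP synthase. The mitochondrial ribosomal proteins are separate from those of the cytoplasmic ribosome, whose genes are named rpl and rps in fission yeast.

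Some arrays of a group differed from each other by noise, with or without a shift common to all genes. What one probe of a gene showed of the difference, its other probe did not. Such pairs were found 9 times and entered as 1 sample each. They include both arrays of every rad3sep1 group, replicates 1 and 3 in the 30 min WT group and the 60 min rad3 group, and replicates 2 and 3 in the 60 min groups of WT and chk1. This left 61 samples, with 13 for WT, 14 for rad3, 15 for cds1, 14 for chk1 and 5 for rad3sep1, which had a single sample per time. A test on rad3sep1 assumes that its lone samples vary like those of the other groups. The transcripts of rad3, cds1, chk1 and sep1 each had their lowest mean in the strains named after them; chk1, for instance, was at -1.37 ± 0.23 (SD, n = 14) in chk1 and -0.53 ± 0.18 (n = 13) in WT. Whether a change in such bulk samples reflects less RNA per cell or fewer cells of a kind, such as a stage of the cell cycle, cannot be told apart. Tests below are limma's moderated test with Benjamini-Hochberg adjustment over all 4921 genes tested, and a gene is said to have risen or fallen where its adjusted p was under 0.05.

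Within the first 30 min of HU 1 of the mitochondrial ribosomal protein genes passed the test, in 1 strain. In WT the early change (mean of 10 and 30 min minus 0 min) had a median of -0.02 over the 56 genes, on the log2 scale, beside 0.01 over all genes. It was -0.05 in rad3, -0.03 in cds1, -0.07 in chk1 and 0.03 in rad3sep1, beside 0.01, 0.00, 0.01 and 0.06 over all genes. None of the 56 passed the test in WT, where 0.772% of all genes did. An unadjusted p under 0.05 was found for 7 of the 56, beside 415 of all 4921 genes. None passed in cds1 (0.528% of all genes), chk1 (1.22%) or rad3sep1 (0.142%) by limma. Before adjustment 3, 7 and 1 of the 56 were below 0.05 there, beside 445, 792 and 214 of all genes.

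The single early call was mrps28 in rad3, a small-subunit gene, in a strain where 2.24% of all genes passed. In rad3 15 of the 56 genes had an unadjusted p under 0.05, all of them lower. Over all 4921 genes 838 had such a p, 526 of them lower. The log2 ratios of mrps28 in rad3 were 0.19, 0.22 and 0.38 at 0 min, -0.10, -0.35 and -0.12 at 10 min and 0.18, -0.32 and -0.55 at 30 min. All 3 samples at 10 min and 2 of 3 at 30 min were below the untreated ones, and the third at 30 min was level with the lowest of them. The early change was -0.47 ± 0.13 (SE, adjusted p = 0.0486). Only 2 of 9 leave-one-out fits kept the call, those without replicate 3 at 10 min or replicate 1 at 30 min, and it was lost on either probe alone, with centred arrays and with only rad3 in the fit.

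The replicate numbers paired the samples in the early comparisons of WT, cds1 and chk1, and with the number as a block 1, 1 and 4 genes passed there. The shares of all genes that passed with the block are not given here, so these counts stand without a background. The first 2 calls were of mrpl40, described below, with adjusted p = 0.0082 in WT and 0.00893 in cds1 by limma with the block. In chk1 mrpl15 and rsm18, a large-subunit and a small-subunit gene, were then among the 4, at -0.31 (adjusted p = 0.0159) and -0.29 (adjusted p = 0.0369). Without the block their early changes in chk1 had adjusted p of 0.128 and 0.129. The other genes with the smallest early p were mrps28 in WT at -0.34 ± 0.14 (adjusted p = 0.428), mrp20 in cds1 at -0.24 ± 0.11 (0.473) and mrps26 in rad3sep1 at -0.38 ± 0.24 (0.999).

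**Figure D1:**
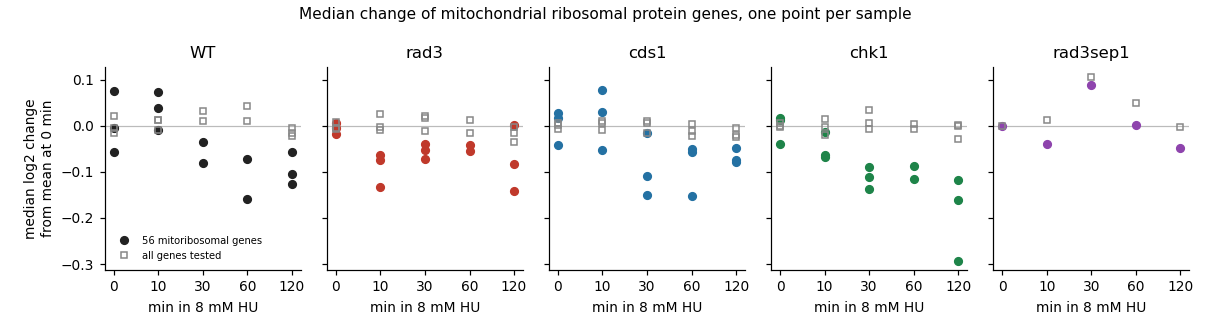
Median log2 change of the 56 mitochondrial ribosomal protein genes (filled) and of all genes tested (open squares) from the strain's mean at 0 min, against minutes in 8 mM HU, with 1 point per sample. The filled points of chk1 at 120 min lie at -0.29, -0.16 and -0.12, while those of all genes lie between -0.03 and 0.00.

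By 60 and 120 min a subset of the genes had fallen in WT and chk1, a larger share than of all genes in the fit of all samples. Without untreated replicate 2 of the strain, 6 of the 56 genes fell in WT and 9 in chk1. The shares of all genes in those 2 fits are not given here. The share that fell was near that of all genes in cds1 and rad3sep1, and in rad3, where it was a little above it, none fell without untreated replicate 3. These shares come from the fit without replicate numbers. Such numbers paired the late samples of cds1, rad3 and chk1, and with them as a block 15, 14 and 25 genes fell. No share of all genes is given here for the fit with the block. The late change (mean of 60 and 120 min minus 0 min) had a median over the 56 genes of -0.11 in WT, -0.05 in rad3, -0.11 in cds1, -0.15 in chk1 and -0.02 in rad3sep1. Over all genes the medians were 0.00, -0.01, -0.02, 0.00 and 0.02. Tests of the differences between strains follow the strains themselves.

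In WT 13 of the 56 genes fell (23.2%, where 12.1% of all genes fell) and 1 rose (where 12.3% of all genes rose). The fallen genes included 6 of 17 with small-subunit symbols, 4 of 29 with large-subunit symbols and 3 of 10 mrp genes. Median late changes were -0.14, -0.06 and -0.18 in these 3 classes, and differences between the classes were not tested. The count of fallen and risen genes was 14, or 7 without replicate 2 of untreated WT. On both probes taken separately 6 of them passed: rsm27, mrps28, rsm24, rsm18, mrpl23 and mrpl8.

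The largest WT decrease was in rsm27, which encodes a small-subunit protein. Its log2 ratios were 0.04, 0.45 and 0.44 at 0 min, -0.42 and -0.67 at 60 min and -0.53, -0.42 and 0.00 at 120 min. Every sample at 60 and 120 min was below every untreated one, the replicate 3 sample at 120 min by the least. The late change was -0.74 ± 0.17 (SE, adjusted p = 0.00128).

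Another small-subunit gene, mrps28, had WT log2 ratios of 0.17, 0.41 and 0.09 at 0 min, -0.50 and -0.54 at 60 min and -0.35, -0.39 and -0.07 at 120 min. The groups did not overlap, and replicate 3 at 120 min was again the nearest to the untreated samples. The change was -0.62 ± 0.14 (adjusted p = 0.000964). For the small-subunit gene rsm24 the untreated values were 0.17, 0.39 and 0.06, those at 60 min -0.39 and -0.68 and those at 120 min -0.32, -0.21 and -0.19. All samples at 60 and 120 min were below 0 and all untreated ones above it, a change of -0.59 ± 0.13 (adjusted p = 0.000863). At 30 min rsm24 was at -0.42 and 0.04, so 1 of the 2 samples had already reached the later level.

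Among large-subunit genes mrpl23 fell the most in WT. It was at 0.21, 0.33 and 0.28 untreated, -0.27 and -0.45 at 60 min and -0.29, -0.30 and -0.20 at 120 min. The lowest untreated sample stood far above the highest treated one. Its change was -0.58 ± 0.11 (adjusted p = 8.29e-05). The next were rsm7, whose bacterial relative helps to nucleate small-subunit assembly, at -0.52 ± 0.16 (adjusted p = 0.0163), and the large-subunit gene mrpl8 at -0.45 ± 0.13 (adjusted p = 0.00804). The call of rsm7 was lost on its first probe (-0.41) and without replicate 2 or 3 of untreated WT (-0.48 and -0.50) or replicate 1 at 60 min (-0.46), and that of mrpl8 without replicate 2 of untreated WT (-0.39).

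The other 7 that fell in WT lay between -0.40 and -0.30. They were rsm18 (-0.40), mrp5 (-0.39), mrpl51 (-0.37), mrp20 (-0.36), rsm1 (-0.33), mrp10 (-0.30) and mrpl12 (-0.30). Of these, mrp20 has relatives at the exit of the peptide tunnel, and mrpl12 has relatives in the stalk that contacts elongation factors.

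**Figure D2:**
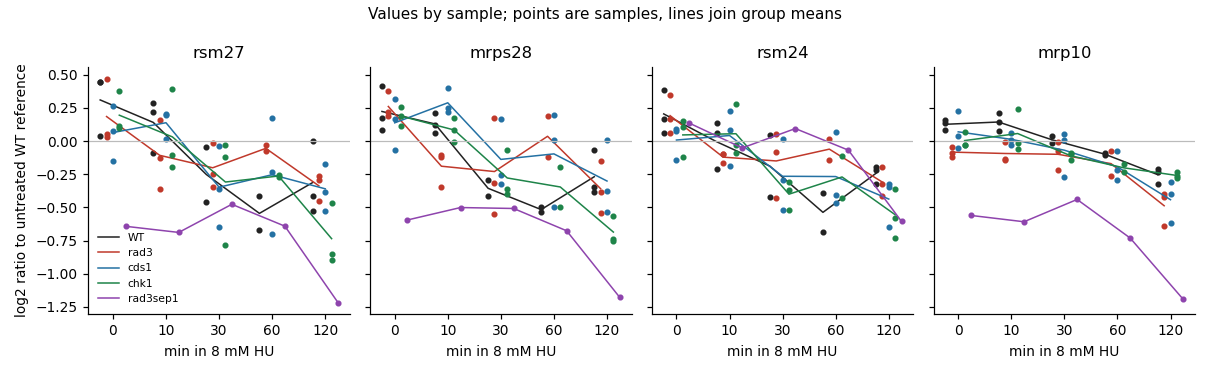
Log2 ratio to the untreated WT reference of rsm27, mrps28, rsm24 and mrp10 against minutes in 8 mM HU, with points for samples, lines through group means and colours for strains. Values fall after 10 min in most strains, and for rsm27, mrps28 and mrp10 the rad3sep1 line starts below the others, at -0.64, -0.59 and -0.56.

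In chk1, whose checkpoint response to stalled forks keeps Rad3 and Cds1, 21 of the 56 genes fell (37.5%, where 14.9% of all genes fell). They were 8 of 17 small-subunit, 8 of 29 large-subunit and 5 of 10 mrp genes. The risen genes were 2 (where 12.6% of all genes rose), mrpl40 and mrp51. In all 23 passed, or 12 without replicate 2 or replicate 3 at 0 min, 15 without replicate 1 at 60 min, 14 without replicate 1 at 120 min, and 13 or 11 on the first or second probe alone.

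The largest chk1 decrease was in mrps28, with log2 ratios of 0.19, 0.26 and 0.12 at 0 min, -0.19 and -0.50 at 60 min and -0.76, -0.56 and -0.74 at 120 min. The lowest values were those at 120 min, and no treated sample reached an untreated one. Its change was -0.70 ± 0.14 (adjusted p = 0.00017). The gene rsm27 was at 0.10, 0.11 and 0.38 untreated, -0.26 and -0.27 at 60 min and -0.85, -0.89 and -0.46 at 120 min, a change of -0.69 ± 0.17 (adjusted p = 0.0021). Here too the samples at 60 min lay between the untreated ones and those at 120 min.

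For rsm18, a small-subunit gene, the chk1 values were 0.39, 0.40 and 0.18 at 0 min, -0.03 and -0.29 at 60 min and -0.38, -0.21 and -0.44 at 120 min. Treated and untreated samples did not overlap, and the change was -0.58 ± 0.10 (adjusted p = 5.29e-05). Next in chk1 were mrpl16, whose bacterial relative lies close to the peptidyl transferase centre, at -0.48 ± 0.16 (adjusted p = 0.0225), mrpl23 at -0.46 ± 0.11 (adjusted p = 0.00127) and mrp5 at -0.46 ± 0.12 (adjusted p = 0.00341). The mrpl16 samples overlapped: untreated replicate 1 was at -0.56, below both a 60 min value of -0.38 and a 120 min value of -0.35. Its call was lost without untreated replicate 2 (-0.38) or 3 (-0.37) or without replicate 1 of the 60 min (-0.38) or 120 min group (-0.40), and with quantile normalization (-0.40), and that of mrpl23 on its second probe (-0.32).

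The mrp51 gene, whose budding yeast relative is a small-subunit protein needed to translate particular mitochondrial messages, rose in chk1 by 0.29 ± 0.10 (adjusted p = 0.0355). Its untreated values were -0.30, -0.11 and -0.30, those at 60 min 0.22 and -0.05 and those at 120 min 0.21, -0.04 and -0.12. The third sample at 120 min fell within the untreated range. The call was lost on either probe alone, with only chk1 in the fit, and in 4 leave-one-out fits, which lacked untreated replicate 1 or 3 or replicate 1 of either late time and gave changes of 0.22 to 0.26.

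In rad3, which lacks the apical kinase, 7 of the 56 genes fell (12.5%, where 8.94% of all genes fell) and 1 rose (where 10.4% of all genes rose). In all 8 passed. Replicate numbers paired the rad3 samples here, and once they were fitted as a block 16 passed, 14 of them lower, with no share of all genes given for that fit. The count was 5, 4 or 1 without untreated replicate 1, 2 or 3, it was 3 without replicate 2 of the 60 min group and 5 without replicate 1 or 2 of the 120 min group; it was 3 on either probe alone and 5 with centred arrays or quantile normalization.

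The largest rad3 decrease was in mrpl3, a large-subunit gene whose budding yeast relative has the fold of a double-stranded RNA nuclease. Its values were 0.36, 0.28 and 0.72 at 0 min, 0.19 and 0.02 at 60 min and -0.11, -0.17 and -0.05 at 120 min. The groups did not overlap, and untreated replicate 3 stood above the other two. The change was -0.46 ± 0.13 (adjusted p = 0.00709), or -0.33 without that sample, which ended the call.

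The others that fell in rad3 were mrps28 at -0.42 ± 0.14 (adjusted p = 0.027), mrp5 at -0.39 ± 0.12 (adjusted p = 0.0154), rsm24 at -0.38 ± 0.13 (adjusted p = 0.0402), mrpl28 at -0.35 ± 0.13 (adjusted p = 0.0458), mrpl15 at -0.34 ± 0.11 (adjusted p = 0.028) and mrp10 at -0.25 ± 0.08 (adjusted p = 0.0314). Each lost its call in at least 2 of 8 leave-one-out fits, and the fit without untreated replicate 3 ended those of all 7 genes. For rsm24 and mrpl28, with adjusted p nearest to the threshold, 6 and 7 of the 8 did. None of the 7 passed on both probes taken separately.

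In cds1 7 of the 56 genes fell (12.5%, where 12.6% of all genes fell) and 2 rose (where 12.4% of all genes rose). The share that fell was thus that of all genes in this fit, which leaves replicate numbers out. Replicate numbers paired the cds1 samples too, and the fit with them as a block called 18 in place of 9. Of these 15 were lower and 3 higher, and no share of all genes is given for that fit. The count was 5 without replicate 2 at 0 min, 4 without replicate 1 at 60 min, 4 with only cds1 in the fit, 4 on the second probe and 14 with all arrays as samples.

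Among them mrp10, a small-subunit protein that carries disulfide bonds in budding yeast, had the smallest p of the decreases. Its cds1 values were 0.23, -0.05 and 0.04 at 0 min, -0.29, -0.22 and -0.07 at 60 min and -0.62, -0.40 and -0.31 at 120 min. All 6 treated samples were below all 3 untreated ones, if replicate 3 at 60 min only just, and the change was -0.39 ± 0.08 (adjusted p = 0.000282).

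The tunnel-exit gene mrp20 was at 0.25, 0.00 and 0.01 in untreated cds1, -0.69, -0.16 and -0.29 at 60 min and -0.38, -0.28 and -0.26 at 120 min. Its groups did not overlap either, with a change of -0.43 ± 0.11 (adjusted p = 0.00331; 0.0797 on the second probe). Replicate 1 at 60 min was the lowest sample of cds1 for mrp20, as it was for mrpl28 at -0.62 and mrpl16 at -0.90. Then came mrpl8 at -0.43 ± 0.12 (adjusted p = 0.00841), rsm24 at -0.36 ± 0.13 (adjusted p = 0.0343), rsm1 at -0.36 ± 0.12 (adjusted p = 0.0274) and mrpl28 at -0.34 ± 0.12 (adjusted p = 0.039). The seventh was rsm25, a small-subunit gene, at -0.30, named here after its values were seen. The calls of rsm24, rsm1 and mrpl28 were each lost in at least 5 of 9 leave-one-out fits, and that of mrpl8 without replicate 2 at 0 min (-0.35) and on the second probe (-0.36). The large-subunit gene mrpl24 rose by 0.28 ± 0.10 (adjusted p = 0.0361), but by 0.51 on its first probe and 0.05 on its second, and 7 of 9 leave-one-out fits ended its call.

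In rad3sep1 3 of the 56 genes fell (5.36%, where 5.14% of all genes fell) and 2 rose (where 11% of all genes rose). The decreases were in the large-subunit gene mrpl20, in mrps26 and in mrp10. The values of mrpl20 over the 5 times, each from 1 sample, were -0.57, -1.12, -0.47, -1.01 and -1.95. It was low at 10 min already and lowest at 120 min, and its late change was -0.91 ± 0.22 (adjusted p = 0.00238). For mrps26 the values ran -0.88, -1.51, -1.01, -1.49 and -1.90 over the 5 times, a late change of -0.81 ± 0.24 (adjusted p = 0.014), and mrp10 fell by 0.40 ± 0.14 (adjusted p = 0.0397). The large-subunit gene mrpl35 rose by 0.47 ± 0.16 (adjusted p = 0.0343).

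The median difference between the pairs of rad3sep1 arrays that were averaged ranged from -0.07 to 0.16, a shift of the whole array. With arrays centred on the median, which removes such shifts, the count was again 5, with 3 lower. With quantile normalization, which gives all arrays the same distribution, 1 gene passed in place of 5 and none was lower, and the late changes of mrpl20, mrps26, mrp10 and mrpl35 were -0.44, -0.25, -0.10 and 0.23 (limma adjusted p 0.548, 0.909, 0.972 and 0.764). The count was 1 on the first probe, 3 on the second and 10 with all arrays as samples, and the calls of mrpl35 and mrp10 were also lost without the second or the first array at 0 min, respectively (0.40 and -0.32).

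Over the strains, 25 of the 56 genes passed in no late comparison, 17 in 1 strain, 5 in 2, 6 in 3, 1 in 4 and 2 in all 5. The same numbers were not counted over all genes, so whether such recurrence exceeds theirs was not tested. The 2 in all strains were mrp10, lower in each, and mrpl40. The gene that passed in 4 was rsm24, lower in WT, rad3, cds1 and chk1, in chk1 by -0.46 ± 0.13 (adjusted p = 0.00834), and at -0.47 ± 0.22 in rad3sep1 (adjusted p = 0.16). The mrp10 changes were -0.30 ± 0.08 in WT (adjusted p = 0.00632), -0.25 ± 0.08 in rad3 and -0.23 ± 0.08 in chk1 (both adjusted p = 0.0314), -0.39 ± 0.08 in cds1 and -0.40 ± 0.14 in rad3sep1. Of these calls only that in cds1 held on each probe alone; those in rad3 and chk1 were also lost with centred arrays (-0.22 and -0.20), quantile normalization (-0.19 in both) and in 5 and 4 of 8 leave-one-out fits.

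No gene was called higher in one strain and lower in another. The late change was below 0 in all 5 strains for 19 of the 56 genes (33.9%) and above 0 in all 5 for 10 (17.9%), beside 23.5% and 23.7% of all genes. The 10 were mrpl40, mrpl7, mrpl19, mrpl32, mrpl35, mrpl50, mrps16, mrps18, mrp21 and rsm10. Apart from mrpl40, 1 of these passed in 1 strain, mrpl35 in rad3sep1. The changes of mrpl7, for example, were 0.23 in WT, 0.26 in rad3, 0.15 in cds1, 0.13 in chk1 and 0.52 in rad3sep1, and those of mrps16 were 0.20, 0.11, 0.08, 0.24 and 0.46.

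**Figure D3:**
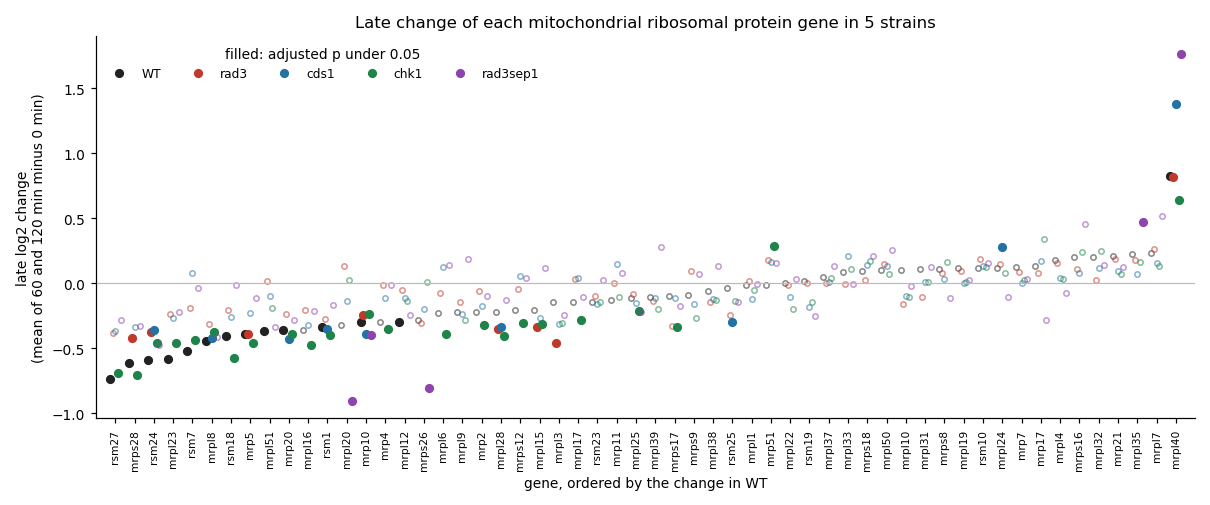
Late log2 change (mean of 60 and 120 min minus 0 min) of each of the 56 genes, ordered by the change in WT, in 5 strains by colour, with filled points for adjusted p under 0.05. Filled points lie mostly on the left, below 0, with rsm27 at -0.74 in WT, and mrpl40 stands alone at the right, from 0.64 in chk1 to 1.77 in rad3sep1.

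The gene mrpl40, a large-subunit gene whose bacterial relative binds early in large-subunit assembly, was the only one to pass as higher in all 5 strains on the mean of its 2 probes. Its late changes were 0.83 ± 0.13 in WT (adjusted p = 3.51e-06), 0.82 ± 0.13 in rad3 (4.64e-06), 1.38 ± 0.12 in cds1 (3.37e-12), 0.64 ± 0.13 in chk1 (0.000182) and 1.77 ± 0.21 in rad3sep1 (1.79e-08). The call in rad3 was lost with quantile normalization (0.37, adjusted p = 0.0894). This increase came from the second probe alone. The second probe gave late changes of 1.55, 1.76, 2.53, 1.48 and 3.36 in these strains, and the first probe 0.10, -0.12, 0.23, -0.20 and 0.18, with adjusted p of 0.369 to 0.824 by limma.

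On the second probe the WT values were 0.23, 0.18 and -0.07 at 0 min, 0.33, 0.49 and 0.97 at 10 min, 0.83 and 0.81 at 30 min, 1.16 and 1.83 at 60 min and 1.88, 1.96 and 1.64 at 120 min. On the first probe they were -0.62, 0.10 and -0.27 at 0 min and -0.43, 0.17 and 0.33 at 10 min. Later they were -0.14 and 0.00 at 30 min, -0.36 and -0.13 at 60 min and -0.41, -0.02 and 0.20 at 120 min. The second probe was thus above its untreated range from 10 min on, at 10 min by little in replicate 1. The first probe was above its own range in replicates 2 and 3 at 10 min and replicate 3 at 120 min, and otherwise within it. The probes parted clearly from 30 min on. In rad3sep1 the second probe went from -0.27 at 0 min to 0.53, 1.13, 2.76 and 3.42, and the first was at -0.39, -0.34, 0.11, -0.13 and -0.28.

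Of all 56 genes mrpl40 had the largest gap between its probes in the late response of every strain. The 2 probes of the other 55 genes differed in late change by a median of 0.11 in WT and at most 0.50 (mrpl10), whereas those of mrpl40 differed by 1.45. In the other strains the largest gap among the 55 was 0.36 in rad3, 0.49 in cds1, 0.49 in chk1 and 1.20 in rad3sep1, and that of mrpl40 was 1.87, 2.30, 1.67 and 3.18. The sequences of the probes are not used here, so which transcript the second probe measures was not tested. In the RefSeq annotation (assembly ASM294v3) mrpl40 overlaps the neighbouring gene did4 by 102 bases. The annotation has an overlapping protein-coding gene for 37 of the 56 genes, by 5 bases (rsm25) to 2791 (mrps26). The overlap was 1854 bases with gpi1 for rsm27 and 1119 with cog8 for mrps28. It was only 39 with pld1 for rsm24 and 30 with scs2 for mrpl23, while mrp10, rsm18 and mrpl8 have none. Such overlaps were not counted over all genes. No source used here says whether the probes tell the strands apart, so values of overlapping genes are uncertain to that extent.

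**Figure D4:**
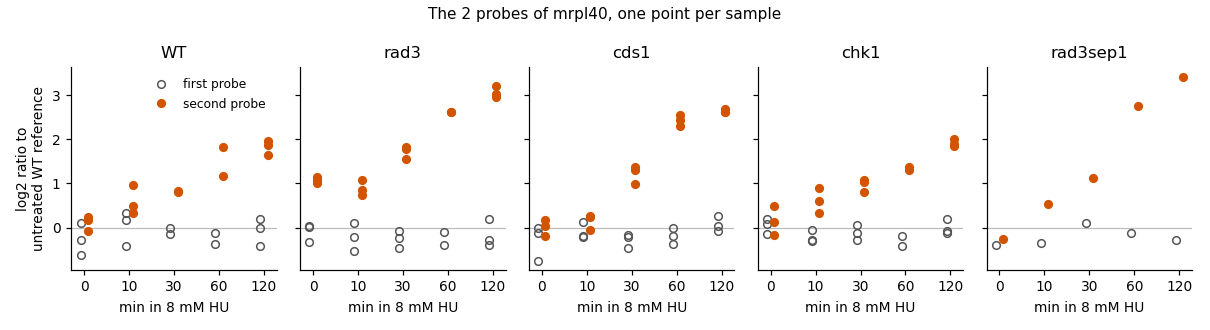
Log2 ratio of the 2 probes of mrpl40 to the untreated WT reference against minutes in 8 mM HU, with 1 point per sample and a panel per strain. The second probe (filled) reaches 1.64 to 1.96 in WT, 2.95 to 3.20 in rad3 and 3.42 in rad3sep1 at 120 min, while the first (open) is between -0.41 and 0.26 in all strains then.

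The strains were compared without HU to see whether the mutations alone shift these genes. Among the single mutants only mrpl40 passed the test, in rad3, again through its second probe. In rad3, where 0.955% of all genes differed from untreated WT, mrpl40 was higher by 0.57 ± 0.14 (adjusted p = 0.0269). Its second probe was at 1.15, 1.00 and 1.09 in the 3 untreated rad3 samples and 0.23, 0.18 and -0.07 in WT, and its first at -0.32, 0.01 and 0.05 against -0.62, 0.10 and -0.27. Of 6 leave-one-out fits 5 ended the call, at 0.51 to 0.61 (all but that without replicate 2 of WT), and it was lost on the first probe and with only WT and rad3 in the fit.

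In cds1 (0.122% of all genes) and chk1 (0.142%) limma called none of the 56. Of the 56, 3 and 2 had an unadjusted p under 0.05, beside 336 and 242 of all 4921 genes. The medians were -0.02 and -0.03, beside -0.01 in both for all genes. The smallest p were those of mrps18 (-0.24 ± 0.11) and mrpl10 (0.22 ± 0.10) in cds1, with adjusted p of 0.695 and 0.700, and of mrp51 (-0.26 ± 0.12) and mrp17 (-0.36 ± 0.17) in chk1, with adjusted p of 0.953 and 0.969.

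The untreated double mutant differed more. In rad3sep1 14 of the 56 genes were lower than in WT (25%, where 13.4% of all genes were lower and 18.9% differed in either direction) and none was higher. The median was -0.25 beside -0.05 for all genes, and 44 of the 56 were below 0 (78.6%, where 54.6% of all genes were). By class 6 of 17 small-subunit, 5 of 29 large-subunit and 3 of 10 mrp genes were lower. The mutant side is 1 sample, the mean of 2 arrays of the same signal, so these tests take its spread from the other groups. The count was 9 without replicate 2 of untreated WT, 8 or 9 on a single probe and 25 with all arrays as samples.

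The largest difference was in rsm7, at -0.57 in rad3sep1 and 0.29, 0.49 and 0.46 in WT, or -0.99 ± 0.26 (adjusted p = 0.00536). In rsm27 the values were -0.64 against 0.04, 0.45 and 0.44, a difference of -0.95 ± 0.27 (adjusted p = 0.0105). In both genes the lone mutant sample lay well outside the WT range. For mrp11 the values were -0.41 against 0.49, 0.36 and 0.56 (-0.88 ± 0.21, adjusted p = 0.00221). For mrpl9, whose bacterial relative is one of the earliest to bind the large-subunit RNA, they were -0.62 against 0.16, 0.47 and 0.12 (-0.87 ± 0.19, adjusted p = 0.000949). These 2 genes passed in no late comparison, and they were low at every time in rad3sep1, with mrp11 at -0.41 to -0.18 and mrpl9 at -0.62 to -0.40.

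Then came mrps28, at -0.59 against 0.17, 0.41 and 0.09 (-0.82 ± 0.22, adjusted p = 0.00692), and mrps26, at -0.88 against -0.14, -0.13 and 0.01 (-0.80 ± 0.22, adjusted p = 0.0099). The first 5 of these 6 kept their calls under every alternative tried, and mrps26 lost its own on the first probe (-0.43). The other 8, between -0.71 and -0.41, were mrpl6, mrp10, rsm1, mrpl39, mrpl12, mrp5, mrps12 and mrpl25. In rad3 alone, untreated, the differences from WT over the 56 genes lay between -0.21 and 0.57 with a median of -0.01.

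Whether a mutation changed the late response itself was tested as the difference of 2 late changes. Against WT none of the 56 genes passed in rad3 (1.3% of all genes did), cds1 (2.15%) or chk1 (0%) by limma. Of the 56, 3, 3 and 1 had an unadjusted p under 0.05, beside 532, 747 and 109 of all 4921 genes. The nearest in rad3 were mrpl20 (0.45 ± 0.18, adjusted p = 0.302) and mrpl51 (0.39 ± 0.17, adjusted p = 0.358). In cds1 they were mrpl40 (0.55 ± 0.18, adjusted p = 0.0952) and rsm7 (0.60 ± 0.23, adjusted p = 0.168). On its second probe mrpl40 did pass in cds1 by limma (0.98, adjusted p = 0.00268), but not on its first (0.12, adjusted p = 0.876), and rsm7 passed without replicate 1 of cds1 at 60 min (0.74, adjusted p = 0.0397). In chk1 the nearest were mrp51 (0.30 ± 0.15) and mrpl20 (0.35 ± 0.19), both with adjusted p near 1 (1.00). The medians of these differences over the 56 genes were 0.03, -0.01 and -0.06, beside 0.00, -0.01 and -0.02 for all genes.

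For rad3sep1 1 gene passed (2.44% of all genes did), mrpl40, whose late change exceeded that of WT by 0.94 ± 0.25 (adjusted p = 0.0265). The difference was 1.81 on the second probe and 0.07 on the first. Its call was lost under quantile normalization (0.34), with only these 2 strains in the fit, and without replicate 2 of untreated WT (0.83), replicate 1 of WT at 60 min (0.83) or the second array of rad3sep1 at 0 min (0.86).

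Lists of other genes of mitochondrial translation and respiration and of the cytoplasmic ribosome, drawn up by symbol, were set beside these genes. Over all genes 12.3% rose and 12.1% fell in late WT, 10.4% and 8.94% in rad3, and 12.4% and 12.6% in cds1. In chk1 12.6% of all genes rose and 14.9% fell, and in rad3sep1 11% and 5.14%. Of 117 cytoplasmic ribosomal protein genes 0 rose and 2 fell in late WT, 1 and 13 in rad3, 1 and 41 in cds1, 0 and 7 in chk1 and 1 and 5 in rad3sep1. Those that fell were 1.71%, 11.1%, 35%, 5.98% and 4.27% of the list. Their medians were -0.04, -0.23, -0.32, -0.08 and -0.04. The order of the strains was thus another than for the mitochondrial set, which had its lowest medians in chk1, cds1 and WT; the orders were not tested. Named members were rpl1603, at -0.61 ± 0.12 in WT (adjusted p = 8.36e-05) and -0.79 ± 0.12 in rad3 (1.33e-06), and rpl3402, at -0.27 ± 0.08 (adjusted p = 0.0138) and -0.51 ± 0.08 (1.03e-05); both have near-identical copies that the probes may not separate.

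Of 32 mitochondrial translation factors and helpers, 3 rose and 3 fell in WT (9.4% each, where 12.3% of all genes rose and 12.1% fell). In rad3 3 rose and 4 fell (9.4% and 12.5%, where 10.4% of all genes rose and 8.94% fell). The medians were -0.05 in WT and 0.01 in rad3. The guf1 gene, for a mitochondrial elongation factor that acts in reverse translocation, fell by 0.49 ± 0.10 in WT (adjusted p = 0.00015) and by 0.55 ± 0.10 in rad3 (adjusted p = 2.73e-05). The RNA-binding pentatricopeptide gene ppr5 rose by 0.40 ± 0.10 in WT (adjusted p = 0.00377), and cbp6, for a helper of cytochrome b synthesis, rose by 0.46 ± 0.12 in rad3 (adjusted p = 0.00617). In cds1, chk1 and rad3sep1 5, 3 and 2 of the list rose and 4, 5 and 1 fell. Those that rose were 15.6%, 9.4% and 6.25% of the list, beside 12.4%, 12.6% and 11% of all genes. Those that fell were 12.5%, 15.6% and 3.1% of it, beside 12.6%, 14.9% and 5.14% of all genes.

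A list of 11 genes was matched by symbol to names of mitochondrial aminoacyl-tRNA synthetases, which charge the tRNAs used inside the organelle. Some of the symbols, mst1, msd1, msl1 and msy1, name other genes in fission yeast, so the counts do not describe synthetases alone. In WT 4 of the 11 fell (36.4%, where 12.1% of all genes fell) and 1 rose (9.09%, where 12.3% of all genes rose). The median was -0.27. The phenylalanyl enzyme gene msf1 fell by 0.39 ± 0.09 in WT (adjusted p = 0.000761) and by 0.35 ± 0.09 in rad3 (adjusted p = 0.00302). The gene mst1, on the list by its symbol alone, fell by 0.76 ± 0.20 in WT (adjusted p = 0.00419). In rad3 1 fell (9.09%, where 8.94% of all genes fell) and none rose (where 10.4% of all genes rose), with a median of -0.12. Before adjustment 2 of the 11 had a p under 0.05, beside 1582 of all 4921 genes. In cds1 2 fell and 2 rose (median -0.09), in chk1 4 fell and 1 rose (median -0.23), and in rad3sep1 none fell and 1 rose (median -0.19). Those that fell were 18.2%, 36.4% and 0% of the list, beside 12.6%, 14.9% and 5.14% of all genes. Those that rose were 18.2%, 9.09% and 9.09% of it, beside 12.4%, 12.6% and 11% of all genes.

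The nuclear genes of the respiratory chain and ATP synthase encode partners of the proteins made by the mitochondrial ribosome. Of 33, 3 rose and 2 fell in late WT (median 0.07), 0 and 2 in rad3 (median -0.02), 0 and 5 in cds1 (median -0.14), 2 and 5 in chk1 (median 0.05) and 4 and 0 in rad3sep1 (median 0.35). Those that rose were 9.09%, 0%, 0%, 6.06% and 12.1% of the list, beside 12.3%, 10.4%, 12.4%, 12.6% and 11% of all genes. Those that fell were 6.06%, 6.06%, 15.2%, 15.2% and 0% of it, beside 12.1%, 8.94%, 12.6%, 14.9% and 5.14% of all genes. In WT cor1, for a core subunit of the cytochrome bc1 complex, rose by 0.55 ± 0.15 (adjusted p = 0.00586) and the ATP synthase assembly gene atp10 fell by 0.54 ± 0.13 (adjusted p = 0.00261). In rad3 the succinate dehydrogenase gene sdh2 fell by 0.35 ± 0.12 (adjusted p = 0.041) and the ATP synthase subunit gene atp7 by 0.29 ± 0.10 (adjusted p = 0.0452). In untreated rad3sep1, where 13.4% of all genes were lower than in WT and 5.55% higher, 4 of these 33 genes were higher and 3 lower (median 0.02). Of the 11 genes matched by synthetase symbols 5 were lower and none higher. Of the 32 translation factors 7 were lower and 1 higher, and of the 117 cytoplasmic ribosomal protein genes 1 was lower and 8 higher. No test compared the lists.

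**Figure D5:**
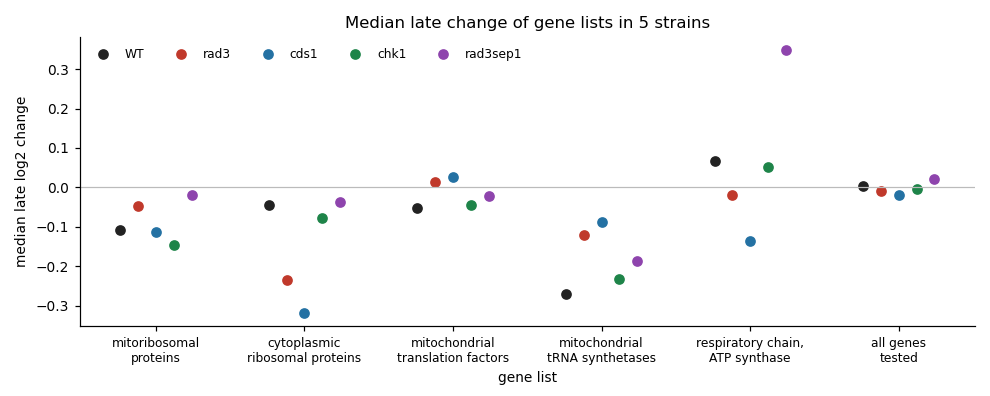
Median late log2 change of the 56 mitochondrial ribosomal protein genes, 4 other gene lists and all genes tested, in 5 strains by colour. The median of the mitochondrial set lies between -0.15 and -0.02, that of the cytoplasmic ribosomal protein genes reaches -0.32 in cds1, and that of the respiratory chain and ATP synthase genes 0.35 in rad3sep1.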

How the data were processed

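Values were the deposited log2 ratios of Cy5 (sample) to Cy3 (untreated WT), per the labels; no source used here gives their normalization, and no scaling was added. The 2 probes of a gene were averaged. Names come from the platform annotation. The test covered 4921 of 4929 features, those with values on 2 or more arrays in each group; 0.238% of probe values were missing, and precision is limited by the number of arrays.

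The series text calls the repeats biological. Array pairs of a group whose difference had r under 0.05 between the 2 probes over all genes were averaged (9 of 65 pairs, r -0.00233 to 0.0317, against 0.113 to 0.488 in the other 56). Where repeats were not separate cultures, p-values measure technical spread.

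Group means of 25 groups were fitted with limma 3.58.1 (lmFit, eBayes) in R 4.3.3, Benjamini-Hochberg adjusted over all genes, threshold 0.05, in 18 comparisons. The fit was tested on simulated data. Figures were drawn with matplotlib 3.10.9 in Python 3.11.15, tables with pandas 2.3.3 and numpy 2.4.6. Members, gene lists and tests were chosen with earlier results of these data known. Other lists were written by hand from general knowledge and matched by symbol, except cytoplasmic ribosomal proteins (symbols rpl or rps and a digit). What each hand-written symbol names in fission yeast was not checked against the annotation.

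The text names, for each comparison, up to 6 increases and 6 decreases past the threshold, taken by size, or the 2 smallest p where none passed; members past it late in at least 4 strains; per other list the 2 smallest adjusted p in late WT and late rad3 among those past it; and the mutated genes. Further names were chosen after their values were seen. Promoter and protein sequences were not used here.

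Replicate numbers were taken as pairing samples where deviations from group means had r over 0.1 in every same-numbered pair, with at least 3 pairs: early WT, cds1 and chk1, late rad3, cds1 and chk1, and untreated cds1 and chk1 against WT. Alternatives were all arrays as samples, arrays centred on the median, quantile normalization, either probe, only genes with a value on all arrays, no filter, the replicate block, only the strains compared, leaving out each sample, and, added after seeing the data, leaving out rsm1.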

Additional observations from a re-analysis of the deposited data

Results flagged for a closer look

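The late change of mrpl40 differed between rad3sep1 and WT by 0.94 ± 0.25 (limma, adjusted p = 0.0265), a difference between strains in the same contrast. The difference was 1.81 on the second probe of the gene and 0.07 on the first. On the mean of both probes it was the 1 gene of the 56 for which any of the 4 mutants differed from WT in its late change; on its second probe alone it also differed in cds1, by 0.98 (adjusted p = 0.00268). It was also the gene whose probes differed most. What the second probe measures was not tested.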

How the results depend on the processing

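Counts of the 56 genes past the threshold moved by more than 1.5 times as follows. With all arrays as samples they went from 0 to 1 (early WT and early rad3sep1), 1 to 2 (early rad3; late rad3sep1 against WT), 9 to 14 (late cds1), 5 to 10 (late rad3sep1) and 14 to 25 (untreated rad3sep1). With quantile normalization they were 1 in early WT, 2 in early rad3, 3 in early chk1, 5 in late rad3, 1 in late rad3sep1 and 0 in its difference from WT; with centred arrays 0 in early rad3 and 5 in late rad3. The first probe gave 0 in early rad3, in untreated rad3 and in late rad3sep1 against WT, 3 in late rad3, 13 in late chk1, 1 in late rad3sep1 and 8 in untreated rad3sep1. On it the late mrpl40 changes in rad3 and chk1 were reversed, at -0.12 and -0.20. The second probe gave 1 in early WT, cds1, chk1 and rad3sep1 and in late cds1 against WT, 0 in early rad3, 3 in late rad3 and late rad3sep1, 4 in late cds1, 11 in late chk1 and 9 in untreated rad3sep1. With only the strains compared the counts were 0 in early rad3, untreated rad3 and late rad3sep1 against WT, and 4 in late cds1; this could not be fitted for rad3sep1 alone, which left no residual degrees of freedom.

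With the replicate block, where numbers paired the samples, counts were 1 in early WT and early cds1, 4 in early chk1, 16 in late rad3 and 18 in late cds1, and it changed no other paired call given here. Where not every pair had r over 0.1, it gave 7 in early rad3 and 1 in late rad3 and late cds1 against WT. In early rad3sep1, with no pair to check, it gave 1. The shares of all genes called with the block are not given here.

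Leaving out 1 sample at a time gave 0 to 1 in early WT, 0 to 2 in early rad3, 7 to 16 in late WT, 1 to 7 in late rad3, 4 to 11 in late cds1, 12 to 21 in late chk1, 4 to 6 in late rad3sep1, 0 to 1 in untreated rad3, 9 to 19 in untreated rad3sep1 and 0 to 1 in late cds1 and late rad3sep1 against WT. In rad3sep1 such a fit drops 1 array of an averaged pair and keeps the number of samples: untreated, the count was 19 without its first array and 10 without its second. The other fits have fewer samples; other causes were not tested. Counts without rsm1, or without the filter or with values on all arrays, stayed within 1.5 times.

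Limits: the number of arrays sets the precision, most of all in rad3sep1 with 1 sample a time. Of the medians, 4 moved by more than the spread between samples: late cds1 on the first probe (-0.04), untreated rad3sep1 with centred arrays (-0.18) or on the first probe (-0.31), and late rad3 against WT on the second (0.09).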
